A study of Caenorhabditis elegans with 8 samples.

Results

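The genes described here encode the core of the spliceosome and the proteins that guide it. These 34 genes, chosen by sequence name, include those for Sm proteins, SR proteins, U1, U2 and U5 snRNP proteins, and prp and mog splicing factors. The rest encode RNA-binding factors of the intron's 3′ end and the hnRNP proteins hrp-1 and hrp-2. All 34 were found among the 8922 genes of the deposited call table and among the 5973 protein-coding genes in it. The study compared where RNA polymerase II sits in early Caenorhabditis elegans embryos with and without RNA interference (RNAi) of sig-7, whose product is a cyclophilin of the nucleus that carries an RNA recognition motif. Chromatin immunoprecipitation and sequencing (ChIP-seq) was directed at AMA-1, the polymerase's largest subunit. Embryos of strain KW2309, from the 1-cell to the 350-cell stage, came from a group with the empty RNAi vector L4440 (control) or from a group with sig-7 RNAi. Each group had 2 AMA-1 ChIP libraries and 2 input libraries. Both groups came from adults grown for 72 h from synchronized larvae and bleached to free their embryos, which were fixed in 2% formaldehyde. Every library therefore pools embryos of many stages and cell types.

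Splicing removes introns from the transcripts that RNA polymerase II makes, often while the polymerase is still on the gene. Small nuclear RNAs are packed with proteins into snRNPs: U1 and U2 mark the ends of the intron, the U4/U6 and U5 particles then join, and the Prp19 complex and a series of RNA helicases drive the rearrangements and the catalytic steps. In C. elegans much of the same machinery also performs spliced leader trans-splicing, which puts a common leader on many messenger RNAs. SR proteins, named for their arginine and serine repeats, and hnRNP proteins bind the transcript and influence which sites are used. In the worm germ line, loss of a mog gene leads hermaphrodites to make sperm where oocytes would form, so several of these factors were first found through sex determination.

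Each value is a call. It is 1 where the gene lay under a peak in the 2 replicates of that condition, and 0 where it did so in at most 1. The table gives no value per library, so a call has no replicate error, and no p-value is given for any of them. A gene that is 0 in 1 condition may still have had a peak in 1 of its replicates, and a call says nothing of how much polymerase a gene carried. Depth is unknown, because no read counts are given. A gene that is absent from the table, and so called in neither condition, is "not listed" below.

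All 34 genes were called in sig-7(RNAi) embryos, and 25 of them were called in control embryos as well. The other 9 had their only call in sig-7(RNAi), and 0 were called in control alone. Among the 19983 protein-coding genes of the gene table, 22.8% were called in control and 23.9% in sig-7(RNAi), against 73.5% and all of the 34 genes. Genes called in both made up 16.8% of all protein-coding genes, those in control only 6.03% and those in sig-7(RNAi) only 7.05%.

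Among called genes alone, the division can be set beside that of other genes. Of the 34 genes 73.5% were called in both conditions, against 56.3% of the 5973 protein-coding genes in the table. Their share in sig-7(RNAi) only was 26.5%, close to the 23.6% of called protein-coding genes. Their share in control only was 0.0%, against 20.2%. Over all 8922 genes, which also include piRNA, tRNA and other RNA genes, these shares were 50.5% in both, 26.0% in control only and 23.5% in the class seen with sig-7 RNAi alone. The share of genes called in sig-7(RNAi) only was thus near the background, and the 34 genes stood apart from it by fewer control-only and more shared calls. Whether that distance exceeds the variation between embryo samples cannot be measured with calls that merge the replicates.

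**Figure D1:**
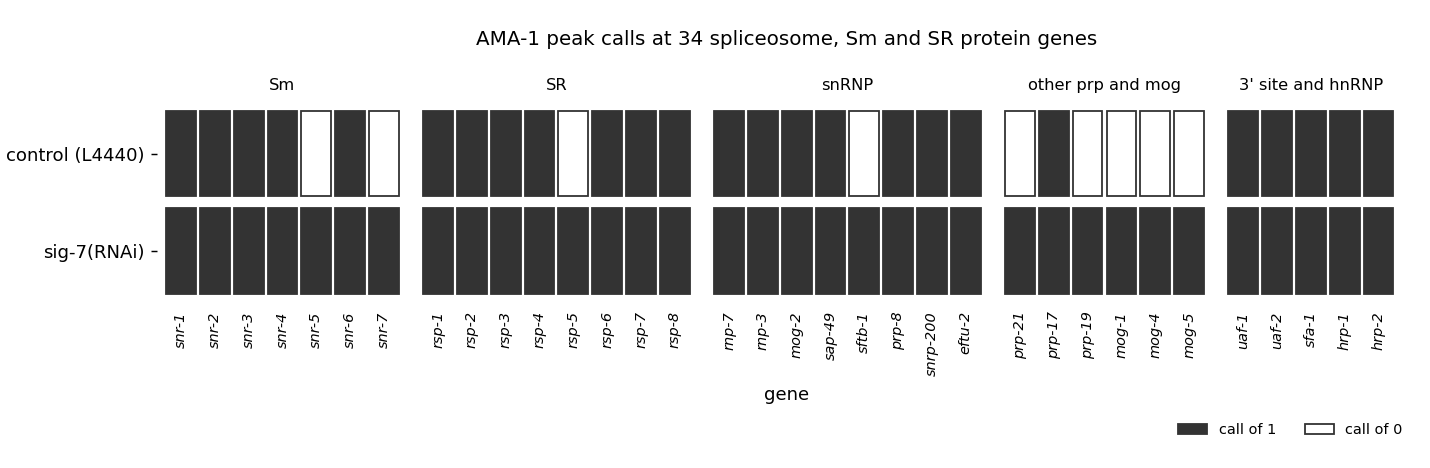
Calls at the 34 genes, with genes along the horizontal axis by family and the conditions on the vertical axis; a filled square is a call of 1 and an open square a call of 0. The sig-7(RNAi) row is filled for all 34 genes, and the control row is open at 9, of which 5 are prp and mog genes.

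The Sm proteins form a ring of 7 around the U1, U2, U4 and U5 RNAs, and in the worm germ line they are also found in P granules. Of the 7 Sm genes, 5 were called in both conditions (71.4%, against 56.3% of called protein-coding genes). These were snr-1 (Y116A8C.42, SmD3), snr-2 (W08E3.1, SmB), snr-3 (T28D9.10, SmD1), snr-4 (C52E4.3, SmD2) and snr-6 (Y49E10.15, SmE). The other two, snr-5 (ZK652.1, SmF) and snr-7 (Y71F9B.4, SmG), had a call of 0 in control and 1 in sig-7(RNAi). By calls, 7 of the 7 ring genes met the peak rule in sig-7(RNAi) and 5 in control, where the remaining ones may have had a peak in 1 replicate. snr-6 overlaps pie-1, which encodes a zinc finger protein that holds back transcription in germline blastomeres, and pie-1 was also called in both conditions. snr-1 overlaps Y116A8C.43, which was called in both too. Which of the overlapping genes a peak belonged to cannot be read from the call.

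Of the 8 SR protein genes, 7 were called in both conditions (87.5%, against 56.3% of called protein-coding genes). They were rsp-1 (W02B12.3), rsp-2 (W02B12.2), rsp-3 (Y111B2A.18), rsp-4 (EEED8.7), rsp-6 (C33H5.12), rsp-7 (D2089.1) and rsp-8 (C18D11.4). Of these, rsp-2, rsp-4 and rsp-7 overlap W02B12.1, ndx-6 and marc-2, which were also called in both. The calls at such overlapping genes cannot be told apart. rsp-3 encodes the worm homologue of SF2/ASF and rsp-4 that of SC35, founding members of the SR family in mammals. The exception was rsp-5 (T28D9.2), called in sig-7(RNAi) only. It stands directly between snr-3 and T28D9.11 in the gene order, and both of these were called in both conditions. The call of 0 at rsp-5 in control thus lay between neighbours that each met the peak rule in control. Where those peaks began and ended cannot be read from the calls.

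Proteins that are specific to a single snRNP particle were read particle by particle. For U1, rnp-7 (K04G7.10), the homologue of U1-70K, was called in both conditions. All 3 U5 genes were too: prp-8 (C50C3.6), whose protein lies at the catalytic centre, snrp-200 (Y46G5A.4), the helicase that unwinds U4 from U6, and eftu-2 (ZK328.2), a GTPase. Of the 5 U2 genes, 3 were called in both (60.0%) and 2 in sig-7(RNAi) only (40.0%). Among called protein-coding genes these shares were 56.3% and 23.6%, so the U2 share in both was near the background. Differences between these few genes and the background were not tested. In both conditions the calls were 1 at rnp-3 (K08D10.3), mog-2 (H20J04.8) and sap-49 (C08B11.5), an SF3b subunit. Calls of 0 in control and 1 in sig-7(RNAi) were found at sftb-1 (T08A11.2), the homologue of SF3B1, which holds the branch point, and prp-21 (W07E6.4), an SF3a subunit. The count for U2 includes prp-21, which is grouped with the prp genes below.

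Of the 8 genes named prp or mog, 5 lacked the control call and were called with sig-7 RNAi (62.5%, against 23.6% of called protein-coding genes). The others, prp-8 and mog-2, described above with their particles, and prp-17, were called in both (37.5%, against 56.3%). The DEAH-box helicases that act in turn around the catalytic steps were alike: mog-4 (C04H5.6, the homologue of Prp2), mog-1 (K03H1.2, Prp16) and mog-5 (EEED8.5, Prp22) each had a call of 0 in control and 1 in sig-7(RNAi). A call in sig-7(RNAi) only was also found at prp-19 (T10F2.4), which encodes a ubiquitin ligase and gives the Prp19 complex its name, and at prp-21. prp-17 (F49D11.1), called in both, encodes a factor of the second catalytic step. The other 4 of the 9 genes without a control call were snr-5, snr-7, rsp-5 and sftb-1. How the families differ from each other was not tested.

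The factors that recognise the 3′ end of introns were called in both conditions without exception. They are uaf-1 (Y92C3B.2) and uaf-2 (Y116A8C.35), the large and small subunits of U2AF, which bind the 3′ splice site, and sfa-1 (Y116A8C.32), the homologue of the branch point binding protein SF1. The hnRNP genes hrp-1 (F42A6.7) and hrp-2 (F58D5.1), which the gene table calls hrpa-1 and hrpr-1, were likewise called in both. With these, 5 of 5 genes of this class had calls of 1 throughout, against 56.3% of called protein-coding genes. sfa-1 and uaf-2 lay in the same run of genes with this call, described below, so their calls may not be separate.

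Since 1 broad peak can call several genes, the neighbours of each gene in the order of protein-coding genes were examined. All 25 genes called in both conditions had at least 1 adjoining gene that was also called in both, against 82.0% of the 3360 protein-coding genes with that call, and 10 of the 25 (40.0%) had such a neighbour on either side, against 27.9%. None of the 25 adjoined a gene called in control only, while 9.52% of the 3360 did. The 25 genes lay in 22 separate runs of genes called in both, of 2 to 11 genes, with a median of 4. For all protein-coding genes with that call the median run was 3 genes, counted per gene. The longest run joined 3 of the spliceosome genes: it began at snr-1, passed through sfa-1, the cyclophilin gene cyn-13 and uaf-2, and ended at itsn-1, and all 11 genes in it were called in both conditions. rsp-1 and rsp-2, which adjoin each other, shared a run of 5 genes.

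The 9 genes whose call was restricted to sig-7(RNAi) lay in 9 separate runs, and none of them adjoined another. Of them, 3 stood alone in their run, 33.3% against 51.1% of the 1409 protein-coding genes with that call. These were rsp-5, sftb-1 and mog-1, and each had a gene called in both conditions on either side. Such flanking on either side was found at 33.3% of the 9 genes and at 7.17% of the 1409. Counting at least 1 adjoining gene called in both, the numbers were 6 of 9 (66.7%) and 43.2%. The remaining 6 genes (66.7%) each adjoined another gene with the same call, as did 48.9% of the 1409. prp-19 was followed by K10D2.5 and emb-1, and snr-5 by slc-17.3. snr-7 was preceded by Y71F9B.6, and prp-21 by gldi-1. mog-4 overlaps nlp-41, a neuropeptide-like gene, which carried the same call.

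Calls changed from gene to gene around mog-5. It overlaps clec-141 and opens a run of 4 genes called in sig-7(RNAi) only, which ends at EEED8.4. On its other side brap-2, pink-1 and fbxl-3 were all called in control only, and beyond them lies ndx-6, which overlaps rsp-4 and was called in both, as was rsp-4. Within this row the calls passed from both conditions to control only to sig-7(RNAi) only. mog-5 was the only one of the 34 genes with a control-only neighbour.

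**Figure D2:**
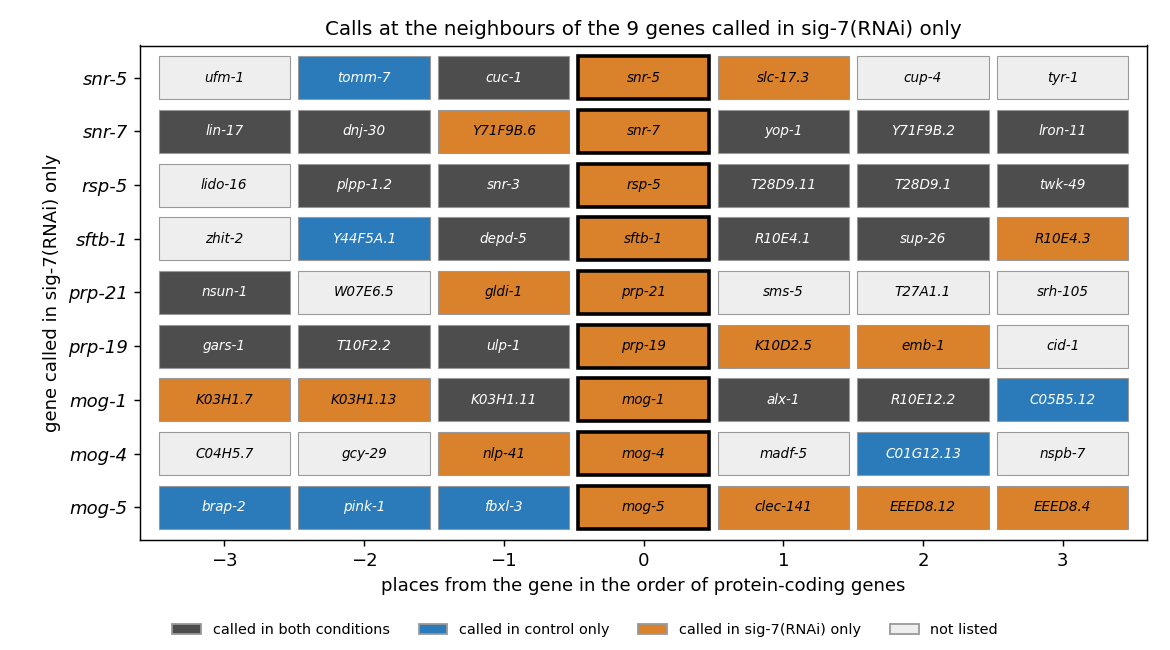
Calls at the 3 protein-coding genes on each side of the 9 genes that lacked a control call, one row per gene; the horizontal axis counts places in the gene order and the colour gives the call. rsp-5, sftb-1 and mog-1 sit between genes called in both conditions, and mog-5 follows 3 genes called in control only.

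Other parts of the spliceosome, with some related factors, were read from a wider list of 60 further genes. Of these, 31 had calls of 1 throughout, 24 were restricted to sig-7(RNAi), 0 to control, and 5 were not listed (lsm-1, lsm-4, prp-4, dib-1 and smi-1). Their share in sig-7(RNAi) only, 43.6% of the 55 called, was above the 26.5% of the 34 genes and the 23.6% of called protein-coding genes. Their share in both, 56.4%, was near the 56.3% of called protein-coding genes. Control-only calls were 0.0%, against 20.2%. Over both sets, 56 of 94 genes (59.6%) were called in control and 89 (94.7%) in sig-7(RNAi), and none in control only. Of all protein-coding genes, called or not, 22.8% were called in control, 23.9% in sig-7(RNAi) and 6.03% in control only. Genes called in both included lsm-3 (Y62E10A.12), lsm-6 (Y71G12B.14), lsm-7 (ZK593.7) and lsm-8 (Y73B6BL.32) for Sm-like proteins, and prp-3 (M03C11.7) and prp-6 (Y59A8B.6) of the U4/U6 and tri-snRNP particles.

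Most of the 24 sig-7(RNAi)-only genes of this list fell into several stages of the splicing cycle. For the U1 and U2 particles there were rnp-2 (U1) and sftb-6 and phf-5 (SF3b of U2), and for the Sm-like ring of U6 gut-2 and lsm-5. The tri-snRNP and its assembly were represented by prp-31, usp-39, sart-3 and snrp-40.1. Factors that join with it were mfap-1, smu-1 and smu-2. Genes of the Prp19 complex and its partners were plrg-1, bcas-2, isy-1, cwc-15, bud-31, ccdc-12 and emb-4. The list is completed by the cyclophilin genes cyn-10 and cyn-15, and by rsr-2, mog-7 and sut-2.

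Arranged by role, a grouping made after the calls were known, the Prp19 complex and its partners had the most genes called in sig-7(RNAi) only. Of 12 such genes, prp-19 included, 4 were called in both conditions (syf-1, syf-2, syf-3 and skp-1) and the other 8 lacked the control call. These 8 were 66.7% of the group, against 23.6% of called protein-coding genes, of which 56.3% were called in both. The cyclophilins below had the same share of 66.7%. The B complex group, of factors that join with the tri-snRNP, had 3 of 5 without the control call (60.0%) and 2 called in both. In the U5 and U4/U6.U5 group 10 of 15 genes were called in both, 3 lacked the control call and 2 were not listed. The U2 and SF3 group had 6 of 10 in both, with 4 that lacked the control call, and the helicases had 3 of 6 in each class, with ddx-15, ddx-46 and hel-1 called in both. SR and SR-related genes had 8 of 10 in both. Of 3 cyclophilins of the spliceosome, cyn-4 was called in both, while cyn-10 and cyn-15 lacked the control call. Sizes of these groups are small, and the differences between them were not tested.

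Pairs of splicing genes that adjoin each other were not always called alike. rnp-2 and rnp-3 are neighbours, and rnp-2 lacked the control call that rnp-3 had. snr-3 and rsp-5 differed in the same way. snu-13, a protein of the U4 particle, adjoins rsp-7, and syf-2 adjoins rnp-7. In these pairs both genes were called in both conditions.

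**Figure D3:**
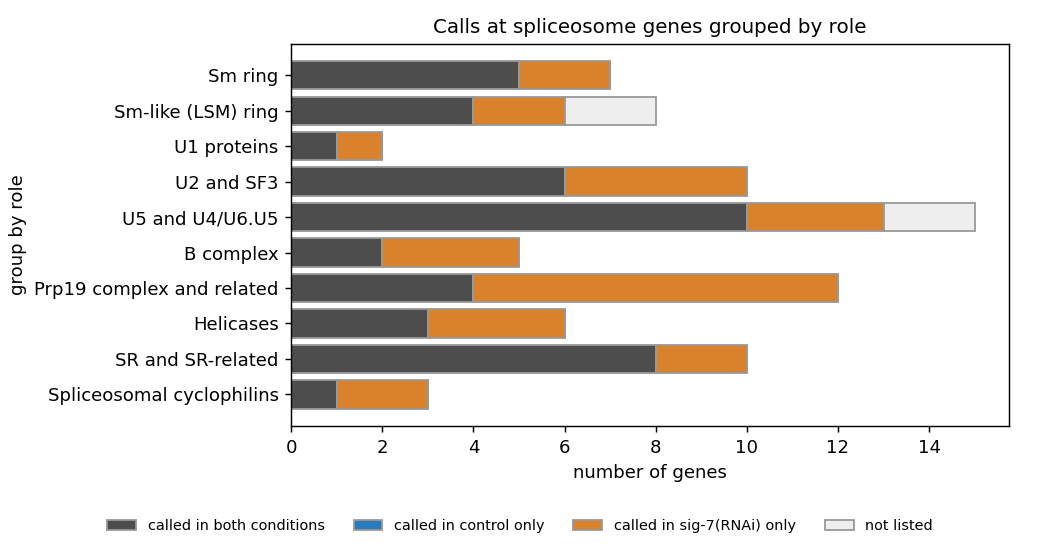
Number of spliceosome genes with each call, grouped by role; bars add up to the genes of the group, and colours give the call. No group holds a gene called in control only, and 8 of the 12 genes of the Prp19 group lacked the control call.

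Regulators of alternative splicing were read from a list of their own. Of 25 such genes, 17 had calls of 1 throughout, 3 were restricted to control, 2 to sig-7(RNAi), and 3 were not listed (ptb-1, mbl-1 and tiar-2). The control-only genes were asd-2 (T21G5.5), a STAR family protein that controls splicing in muscle, unc-75 (C17D12.2), a neuronal CELF family protein, and exc-7 (F35H8.5), an ELAV homologue of neurons and the excretory canal. In sig-7(RNAi) only, rnp-6 (Y47G6A.20) and the kinase gene cdk-11.2 (ZC504.3) were called. Genes called in both included the Fox-1 family genes asd-1 (R74.5) and fox-1 (T07D1.4), mec-8 (F46A9.6), sup-12 (T22B2.4), hrpf-1 (W02D3.11) and hrpk-1 (F26B1.2). Control-only calls were thus 13.6% of the 22 called regulators and 0.0% of the 89 called genes of both spliceosome lists. Among called protein-coding genes they were 20.2%. Of the 22 called regulators, 77.3% were called in both conditions and 9.09% in sig-7(RNAi) only. These shares were 56.3% and 23.6% of called protein-coding genes. Differences between the lists were not tested.

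**Figure D4:**
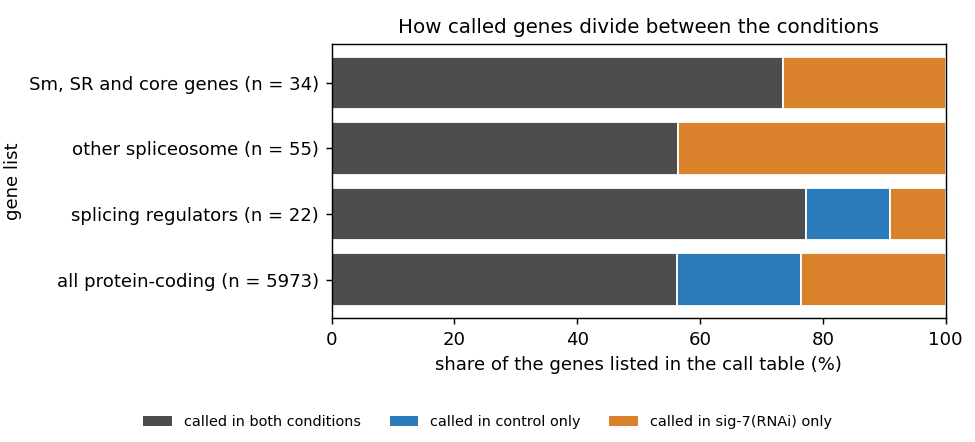
Share of called genes, in percent, with each kind of call (either condition alone, or both together), for 34 spliceosome, Sm and SR protein genes, 55 other spliceosome genes, 22 splicing regulators and 5973 protein-coding genes. The control-only part is 0.0% for both spliceosome lists, 13.6% for regulators and 20.2% for all.

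Genes listed as markers of the stage and source of the material were read beside these calls. How well a polymerase call at each of them marks stage or source was not tested. The gene ama-1 had calls of 1 throughout, and sig-7 itself had its only call in sig-7(RNAi) embryos, which does not give its transcript level. Of 17 genes listed as early embryo markers, 6 were called in both (pie-1, pos-1, skn-1, vet-2, nhr-2 and pal-1), 4 in sig-7(RNAi) only (med-2, vet-1, vet-6 and ceh-51) and 0 in control only. The call at pie-1 cannot be told apart from that of snr-6, which it overlaps. The endoderm genes end-1 and end-3 were not listed, nor were mex-5, mex-6, med-1, tbx-37 and tbx-38. Of 6 vitellogenin genes, which the mothers' intestine transcribes, only vit-1 had a call, and only with sig-7 RNAi, and 0 of 5 sperm genes had any. Of the 10 called early embryo markers, 40.0% were thus sig-7(RNAi)-only and 0.0% control-only, against 23.6% and 20.2% of called protein-coding genes. Whether the stages of the embryos differed between the conditions, and any part of that in the spliceosome calls, was not tested.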

How the data were processed

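Per the file headers, the authors called peaks with MACS2 and its broad option, with 0.01 as the cutoff. They assigned a gene to a peak at an overlap of at least 250 bp or 45% of the gene. The deposited values are calls of 0 or 1 per gene and condition, a category and no signal or count. The submitters' processing notes also name Bowtie 1.0.1 and the build ce10. How the inputs were used, which gene annotation and which MACS2 release: not given in the sources used here.

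Names of genes were matched, ignoring case, to the RefSeq gene table of WBcel235 (8824 matched, 98 did not). As that assembly is not ce10, it supplied names, kinds of gene, gene order and overlap between neighbours, and no coordinates. Order and overlap could differ in ce10. Counts and shares were made with Python 3.11.15 and pandas 2.3.3, and the counting of runs was checked on a simulated gene order. Lists of symbols gave 60 of 70 spliceosome genes, as 10 were absent from the gene table. Of 30 regulators 3 were absent and 2, hrpa-1 and hrpr-1, were left out as members. The members and lists were chosen with earlier results of these data known, and no set test was made. All members are named, together with every gene of the 2 lists called in a single condition and the first 6 called in both. Further genes named by role were chosen after their calls were seen. The planned proteins and promoter motifs were not analysed here, since no sequences were used.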

Additional observations from a re-analysis of the deposited data

How the results depend on the processing

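No paired analysis was possible because each call already combines 2 replicates, and for the same reason other peak thresholds, overlap rules and leaving out a replicate were not run. Kept to the 3 members with no adjoining gene of the same call (rsp-5, sftb-1 and mog-1), the share called in both conditions, and with it the share called in control, went from 73.5% to 0.0%, and the share in sig-7(RNAi) only from 26.5% to 100.0%. This setting leaves 3 genes by its construction, since all 25 genes called in both adjoin another such gene. Against all 8922 listed genes, the members' share in both conditions was 23.03 percentage points higher and that in control only differed by -26.04 points. The share in sig-7(RNAi) only was 3.012 points higher. Against all 19983 protein-coding genes, called or not, a background chosen after seeing the data, these distances were 56.72, -6.025 and 19.42 points, so that the last share is near the background only among called genes. Counting that distance, 36 recomputed values (also members without overlapping genes, without rsp-1 and rsp-2, or with adjoining members counted once, a background of called protein-coding genes, and the other lists with runs counted once or without genes beside a member) lay within the 95% exact binomial interval of the first value. That interval treats genes as independent and is wide, and these settings mostly drop a few of the same genes, so this says little about stability. Depth limits all calls to an unknown degree.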

Other observations

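The mog genes were named for a shared germline phenotype and not for a place in the spliceosome. Of 7, with cyn-4 counted as mog-6, 3 were called in both conditions (mog-2, mog-3 and cyn-4) and 4 in sig-7(RNAi) only (mog-1, mog-4, mog-5 and mog-7). These 4 were 57.1% of the group, against 23.6% of called protein-coding genes, a difference that was not tested.

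Steps that couple to splicing were read from lists made after the spliceosome calls were known. Of 14 genes for cleavage and polyadenylation, 7 were called in both conditions, among them cpsf-1, cpsf-3 and pcf-11, 4 in sig-7(RNAi) only (cpf-1, pap-1, symk-1 and fipp-1), 0 in control only, and 3 were not listed (cpsf-2, cpsf-4 and cfim-1). Of the 11 called, 36.4% were sig-7(RNAi)-only and 0.0% control-only, against 23.6% and 20.2% of called protein-coding genes, a difference that was not tested. Of the genes for the nuclear cap-binding complex, ncbp-2 was called in both and ncbp-1 in sig-7(RNAi) only. For proteins of spliced leader trans-splicing, sna-1, sna-2 and sna-3 were called in both, and sut-1 was not listed. Among called protein-coding genes, 56.3% were called in both and 23.6% in sig-7(RNAi) only. With so few genes, neither group was tested against these shares.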
